A study of Mus musculus with 4 samples.

Results

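Interstitial macrophages are the macrophages of the lung tissue that lie between the airspaces and around vessels and airways. They were taken here from single-cell RNA sequencing of mouse lung, as 428 of 25982 cells. A cell was a member when C1qa, C1qb and C1qc, which encode the chains of complement component C1q, and Ms4a7, a membrane protein gene of macrophages, together held at least 0.5% of its unique molecular identifiers (UMIs, the counted RNA molecules). A member also held under 0.1% of UMIs of the alveolar macrophage genes Ear1, Fabp1, Atp6v0d2, Krt79, Cidec, Marco and Plet1, and under 5% of the surfactant genes Sftpc, Sftpb and Sftpa1. It held at most 2 UMIs of the lymphocyte genes Cd79a, Cd79b, Cd3d and Cd3e, and at most 3 of the endothelial and fibroblast genes Cdh5, Cldn5, Col1a1 and Col1a2. Members were thus chosen by measured values of these genes, and the levels of these genes are a description of the choice.

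The study crossed 2 genotypes with 2 treatments, with 1 library per group, each from the pooled lung cells of 5 mice aged 11 weeks. HSK was FUNDC1 knockout with HySu, HSW was wild type with HySu, NK was FUNDC1 knockout in normoxia and NW was wild type in normoxia. HySu is a mouse model of pulmonary hypertension in which hypoxia is combined with SU5416, an inhibitor of the VEGF receptor, given here in 3 weekly doses, and the normoxia mice received the vehicle. The cells came from fresh lungs by enzyme digestion and lysis of red cells, and microwells were used to capture them singly. The series title speaks of an endothelial deficiency, while the labels say only FUNDC1-KO and do not name the cells in which the gene was removed. FUNDC1 is a receptor on the outer mitochondrial membrane through which damaged mitochondria are taken up for degradation.

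Interstitial macrophages derive in part from blood monocytes and in part from cells seeded before birth. In mouse lung they are usually divided into cells that express Lyve1, Folr2 and Cd163 and lie near vessels, and cells high in MHC class II, the molecules that present antigen to T cells, which lie near nerves and airways. They clear dying cells through receptors such as Mertk, take up lipid and iron, and release chemokines that draw monocytes into the tissue.

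The rule found 83 of 4128 cells in HSK, 121 of 5041 in HSW, 123 of 9164 in NK and 101 of 7649 in NW. Together they held 596857 UMIs in HSK, 785808 in HSW, 635242 in NK and 668304 in NW, with a median per cell of 6154 in HSK, 5783 in HSW, 4847 in NK and 5572 in NW. The summed rule genes had a median of 1.81% of a member's UMIs in HSK, 2.07% in HSW, 1.42% in NK and 1.39% in NW. The lowest members were close to the threshold, at 0.532% in HSK, 0.503% in HSW, 0.513% in NK and 0.502% in NW, and the highest cells that failed this bound alone stood at 0.456% in HSK, 0.440% in HSW, 0.492% in NK and 0.490% in NW. Between 0.5% and 0.6% lay 3 members in HSK, 5 in HSW, 4 in NK and 5 in NW.

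Of 15 macrophage genes listed that the rule did not use, some were seen in most members and others in few. Csf1r, the receptor for the macrophage growth factor, was seen in most members. After each cell was thinned to 4726 UMIs, the share of members with a Csf1r UMI was 83.1% in HSK, 90.5% in HSW, 92.4% in NK and 92.6% in NW, and without thinning it was 86.7% in HSK, 94.2% in HSW, 89.4% in NK and 94.1% in NW. Lymphocytes should lack it and give the level of free RNA. Among lymphocytes chosen, after seeing the data, to be free of other cell types' genes, the share was 12.3% in HSK, 13.2% in HSW, 26.4% in NK and 35.9% in NW, and among all lymphocytes it was 14.7% in HSK, 18.8% in HSW, 30.6% in NK and 37.7% in NW. All these shares are after thinning, and the restricted lymphocytes had a median of 6548 UMIs in HSK, 6468 in HSW, 4559 in NK and 5513 in NW and all lymphocytes 7693 in HSK, 7020 in HSW, 5659 in NK and 6809 in NW. Shares in lymphocytes below are those of the restricted set unless all lymphocytes are named. The share of thinned members with a Maf UMI was 43.4% in HSK, 37.9% in HSW, 56.1% in NK and 47.1% in NW. Among all lymphocytes it was 14.7% in HSK, 13.7% in HSW, 19.5% in NK and 17.1% in NW. For Mertk it was 13.3% in HSK, 12.6% in HSW, 24.2% in NK and 5.88% in NW. Among all lymphocytes the Mertk share was 10.5% in HSK, 9.53% in HSW, 12.8% in NK and 6.68% in NW. Of the 8 dendritic cell genes listed, Flt3, a growth factor receptor of these cells, had 4 UMIs in HSK, 6 in HSW, 3 in NK and 1 in NW over all members, and Zbtb46, their transcription factor, had 1 UMI in HSK, 2 in HSW, 2 in NK and 0 in NW. Ccr7, a receptor of migrating dendritic cells, and Fscn1, an actin-bundling protein, were higher in NK than elsewhere, with 2 UMIs in HSK, 2 in HSW, 27 in NK and 5 in NW for Ccr7 and 2 UMIs in HSK, 0 in HSW, 24 in NK and 9 in NW for Fscn1, and both were called higher in NK against NW and lower in HSK against NK. Cd24a, which epithelium also expresses, had 59 UMIs in HSK, 10 in HSW, 31 in NK and 27 in NW. The whole list summed to 127 CPM in HSK, 64.9 in HSW, 154 in NK and 97.3 in NW, and its part in the results below was not tested.

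The libraries differed in technical measures that move with treatment. They held between 41308071 and 63501686 UMIs in all. Each deposited matrix started at its own lowest UMI count per cell, which was 4726 in HSK, 4230 in HSW, 3182 in NK and 3775 in NW. Members had a median of 1.76% mitochondrial UMIs in HSK, 2.17% in HSW, 1.05% in NK and 1.34% in NW. RNA of other cells was present in members: Scgb1a1, the main secretory product of club cells, had 7171 CPM in HSK, 4346 in HSW, 1414 in NK and 1688 in NW, where CPM is the members' UMIs of a gene scaled to a common total of 1000000, and the 6 alveolar type 2 genes listed summed to 3270.5 CPM in HSK, 2073 in HSW, 3584 in NK and 2549.7 in NW. Between 20 and 70 cell barcodes were shared by each pair of libraries, and 0 of these were members in both. Fundc1 itself had 0 UMIs in HSK, 36 in HSW, 1 in NK and 26 in NW, which puts the HSK level at least 9.11-fold under that of HSW when the library at 0 is given a floor of 3 UMIs. The NK to NW ratio of Fundc1 was 0.0405 [0.000987, 0.246], where square brackets here and below give an exact 95% interval of counting error only.

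Interstitial macrophages were a larger share of the deposited cells under HySu in both genotypes. They made up 2.01% [1.60, 2.49] of cells in HSK, 2.40% [2.00, 2.86] in HSW, 1.34% [1.12, 1.60] in NK and 1.32% [1.08, 1.60] in NW. The ratio of shares was 1.82 [1.38, 2.39] for HSW over NW and 1.5 [1.12, 2.00] for HSK over NK. Between genotypes it was 1.02 [0.775, 1.34] for NK over NW and 0.838 [0.626, 1.12] for HSK over HSW, with intervals that hold 1, and the NK over NW ratio turned to 0.725 under strict bounds on other cell types. Shares depend on what they are set against. Per alveolar macrophage the ratio was 1.59 for HSW over NW and 0.988 for HSK over NK, and per classical monocyte 2.28 for HSW over NW and 3.16 for HSK over NK. With 1 library per group these intervals hold no variation between mice or captures, and a lowest UMI count that differs by library cannot be told apart from the treatment.

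**Figure D1:**
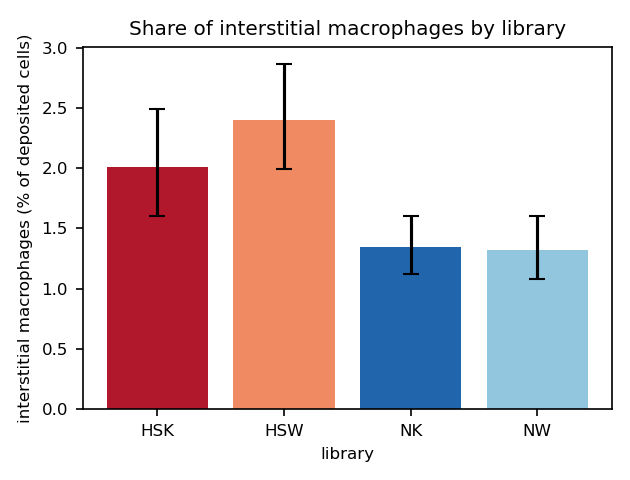
Interstitial macrophages as a percentage of all deposited cells in each library, with HSK, HSW, NK and NW from left to right. Bars start at 0 and whiskers are exact 95% intervals of counting error. The bars of both HySu libraries, at 2.01% in HSK and 2.40% in HSW, stand above those of both normoxia libraries, at 1.34% in NK and 1.32% in NW.

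The bar plot of shares gives the size of each group of members on which the gene levels below rest. For each pair of libraries, UMIs were summed over members, and a gene was called higher or lower when it had at least 20 UMIs in the pair, a ratio of CPM of at least 1.5 or at most 0.667, and an interval that excludes 1. The words rose and fell are used for such genes, and they compare single libraries. Under HySu more genes fell than rose. In HSW against NW 5.28% of 7080 genes were higher and 28.1% were lower, and in HSK against NK 9.09% of 6899 genes were higher and 33.3% were lower. This split depends on the scaling. With TMM factors, which centre the bulk of the genes, 963 genes were higher and 839 lower in HSW against NW, in place of 374 higher and 1993 lower, and 1196 were higher and 1020 lower in HSK against NK, in place of 627 higher and 2300 lower. The median log2 ratio of all genes measured was -0.40 in HSW over NW and -0.48 in HSK over NK, and TMM raised it by 0.38 in HSW over NW and by 0.43 in HSK over NK. List medians below are therefore to be read against these values, and list counts are given under both scalings where the list leads a comparison.

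Of the 6328 genes measured in both HySu comparisons, 152 rose in both genotypes, which is 46.1% of the 330 that rose in wild type and 27.9% of the 545 that rose in knockout. Another 976 fell in both, which is 53.8% of the 1815 that fell in wild type and 45.7% of the 2138 that fell in knockout. The background shares were 5.21% higher and 28.7% lower in wild type and 8.61% higher and 33.8% lower in knockout over the same genes. The libraries of the 2 comparisons are different ones. Opposite calls were made for 59 genes, of which 30 rose and 29 fell in wild type.

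**Figure D2:**
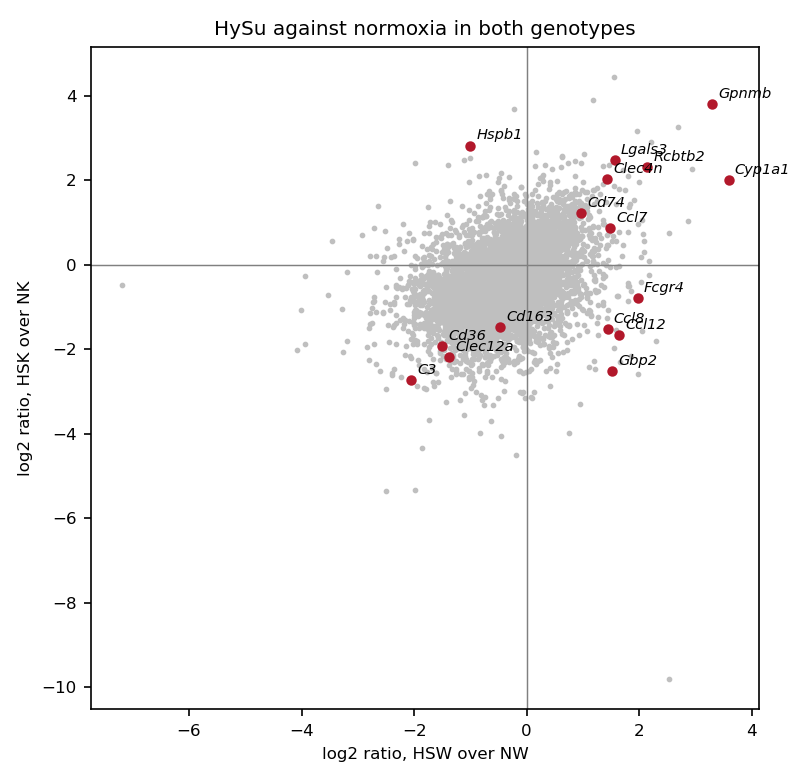
Each point is a gene measured in both HySu comparisons, with the log2 ratio of HSW over NW on the horizontal axis and of HSK over NK on the vertical axis. A selection of genes described in the text is in red and named. Lgals3, Clec4n, Rcbtb2, Cyp1a1 and Cd74 lie high in both genotypes, C3, Cd36 and Clec12a lie low in both, and Ccl8, Ccl12, Fcgr4 and Gbp2 are high in HSW over NW and low in HSK over NK.

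Genes of lipid-loaded and tissue-repairing macrophages were called higher more often than all genes under HySu. Of 22 genes listed, 19 were measured in HSW against NW, 9 rose and 5 fell, with a median log2 ratio of 0.60. The 9 included genes seen in few cells: Retnla, with 88.1% of its HSW UMIs in 1 cell, Arg1, from 6 HSW cells, and Gpnmb. In HSK against NK 18 were measured, 5 rose and 5 fell, with a median of 0.35. In alveolar macrophages the list median was 0.18 for HSW over NW and 0.41 for HSK over NK, and in classical monocytes it was -0.11 for HSW over NW and -0.06 for HSK over NK. With TMM factors the counts in interstitial macrophages were 13 higher and 4 lower in wild type and 11 higher and 3 lower in knockout.

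Apoe, which carries cholesterol and other lipids, had 16522 CPM in HSK, 17657 in HSW, 9256 in NK and 8234 in NW. Both HySu libraries were above both normoxia libraries, with ratios of 2.14 [2.08, 2.21] for HSW over NW and 1.78 [1.73, 1.84] for HSK over NK. Lgals3, a galactose-binding lectin of macrophages, had 3250.4 CPM in HSK, 2275 in HSW, 582 in NK and 769 in NW, and its ratios were 2.96 [2.68, 3.27] for HSW over NW and 5.58 [4.99, 6.25] for HSK over NK. Tyrobp, the signalling adaptor of Trem2 and other receptors, had 3820.0 CPM in HSK, 3834 in HSW, 1449.8 in NK and 1840.5 in NW and rose 2.08 [1.95, 2.23]-fold in HSW over NW and 2.63 [2.44, 2.85]-fold in HSK over NK. Trem2 itself, a lipid receptor, was not called in either pair, with ratios of 1.47 [1.21, 1.80] for HSW over NW and 1.11 [0.910, 1.36] for HSK over NK. Gpnmb, a membrane glycoprotein of lipid-loaded macrophages, was confined to few cells, with 58 UMIs in HSK, 40 in HSW, 4 in NK and 3 in NW from 13 cells in HSK, 9 in HSW, 3 in NK and 3 in NW. Its HSW over NW call ended when the rule genes had to reach 1% of UMIs. Fth1 and Ftl1, the chains of the iron store ferritin, rose too. The Fth1 ratio was 1.72 [1.66, 1.78] for HSW over NW and 2.65 [2.56, 2.75] for HSK over NK, and the Ftl1 ratio was 1.59 [1.45, 1.74] for HSW over NW and 3.28 [2.98, 3.62] for HSK over NK. Ferritin genes have many near-identical pseudogenes, and how reads shared between copies were counted is not given in the sources used here, so these values are less certain.

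Lpl, Cd36 and C3 went the other way. Lpl, which splits the triglycerides of lipoproteins, had 181 CPM in HSK, 177 in HSW, 505 in NK and 919 in NW and fell in both genotypes, with ratios of 0.193 [0.159, 0.232] for HSW over NW and 0.358 [0.285, 0.447] for HSK over NK. The share of thinned members with an Lpl UMI was 38.6% in HSK, 29.5% in HSW, 60.6% in NK and 63.2% in NW. Among all lymphocytes it was 34.0% in HSK, 27.9% in HSW, 38.5% in NK and 30.4% in NW. The HySu shares of Lpl in members were near those of all lymphocytes. Among the restricted lymphocytes the share was 15.4% in HSK and 11.6% in HSW. Cd36, a scavenger receptor and fatty acid carrier, had 117 CPM in HSK, 112 in HSW, 447 in NK and 317 in NW, with ratios of 0.353 [0.272, 0.455] for HSW over NW and 0.262 [0.199, 0.342] for HSK over NK. C3, the central complement component, had 16 UMIs in HSK, 33 in HSW, 117 in NK and 118 in NW, which gave ratios of 0.238 [0.157, 0.352] for HSW over NW and 0.146 [0.0805, 0.246] for HSK over NK. The share of thinned members with a C3 UMI was 8.43% in HSK, 13.7% in HSW, 34.8% in NK and 26.5% in NW. Among all lymphocytes it was 24.6% in HSK, 23.7% in HSW, 40.8% in NK and 36.6% in NW. The C3 share of members was under that of all lymphocytes in each library. Among the restricted lymphocytes the share was 4.62% in HSK, 6.98% in HSW, 19.7% in NK and 20.9% in NW, under that of members in each library. The part of background in the C3 UMIs of members was not tested. For each of these 3 genes both HySu libraries lay below both normoxia libraries. Of 12 complement genes measured, 1 was higher and 2 lower in HSW against NW, and 1 was higher and 5 lower in HSK against NK. With TMM factors 3 were higher and 2 lower in wild type, and 4 higher and 3 lower in knockout. By total counts the higher gene in both comparisons was C1qb, a gene of the membership rule. The higher counts are thus in part a description of the choice of members.

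Several receptors that bind antibody and sugars rose as well. Of 25 Fc and lectin receptor genes listed, 21 were measured in each HySu comparison. In HSW against NW 9 rose and 3 fell, with a median log2 ratio of 0.56, and in HSK against NK 6 rose and 6 fell, with a median of 0.26. With TMM factors the counts were 13 higher and 1 lower in wild type and 13 higher and 3 lower in knockout. Fcgr3, an activating receptor for antibody, rose 1.97 [1.73, 2.24]-fold in HSW over NW and 1.75 [1.55, 1.98]-fold in HSK over NK. Fcer1g, the signalling chain shared by Fc receptors, had 3145 CPM in HSK, 3218 in HSW, 1587 in NK and 2036 in NW. Clec4n, a lectin that binds fungal mannans, had 565 CPM in HSK, 412 in HSW, 139 in NK and 153 in NW, the highest values again in both HySu libraries, with ratios of 2.70 [2.16, 3.41] for HSW over NW and 4.08 [3.21, 5.21] for HSK over NK. Clec4d, its partner in the same lectin cluster, rose 2.28-fold in HSW over NW and 3.42-fold in HSK over NK. Clec12a, an inhibitory lectin, fell in both genotypes, with ratios of 0.385 [0.307, 0.480] for HSW over NW and 0.218 [0.161, 0.291] for HSK over NK, and Itgax, the integrin chain CD11c, fell to ratios of 0.438 for HSW over NW and 0.389 for HSK over NK.

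**Figure D3:**
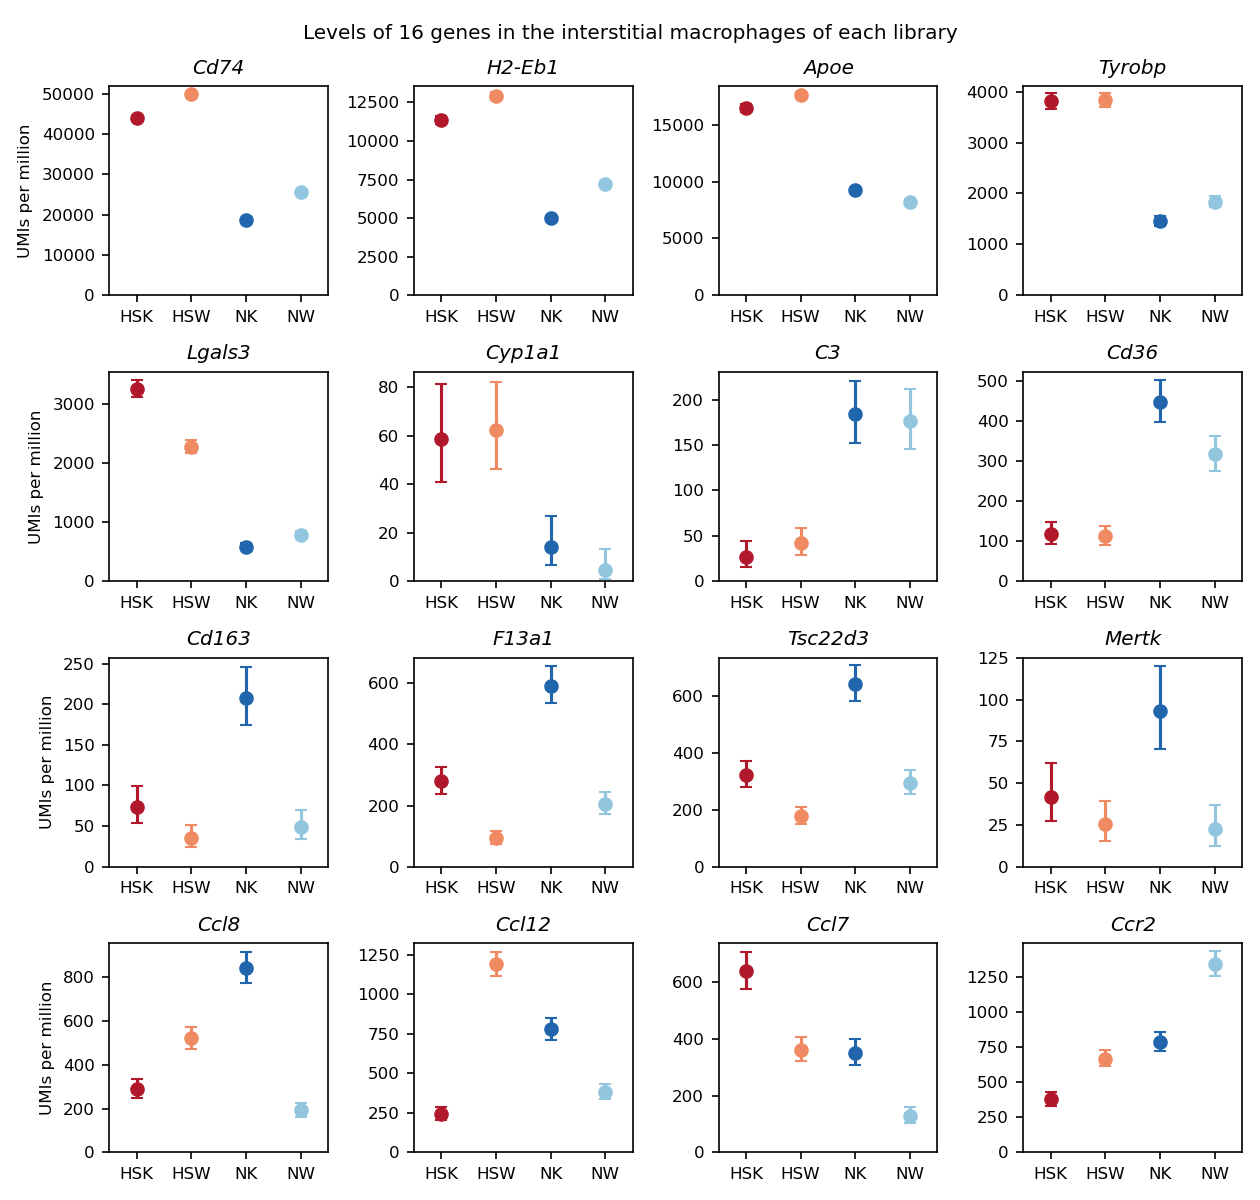
Levels of 16 genes in the interstitial macrophages of each library, in CPM on axes that start at 0, with HSK, HSW, NK and NW from left to right. Whiskers are exact Poisson 95% intervals of counting error. The upper 2 rows hold genes that differ with HySu in both genotypes, such as Cd74 and Lgals3 above and C3 and Cd36 below their normoxia levels, and the lower 2 rows hold genes such as Cd163 and Ccl8 whose levels differ between genotypes.

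Few genes of the MHC class II-high subset passed the rule, in both directions, and those that rose were abundant ones. Of 14 genes listed, 2 of 13 measured rose and 3 fell in HSW against NW, with a median log2 ratio of 0.05, and 3 of 14 rose and 2 fell in HSK against NK, with a median of 0.15. By total counts the genes that fell were Cx3cr1, Mmp12 and Tnip3 in HSW against NW and Mmp12 and Cd83 in HSK against NK. Scaled by TMM the counts were 6 higher and 1 lower in wild type and 7 higher and 0 lower in knockout. In alveolar macrophages the list median was 0.05 for HSW over NW and -0.17 for HSK over NK, and in classical monocytes it was -0.33 for HSW over NW and -0.34 for HSK over NK. Cd74, the invariant chain that escorts MHC class II molecules, had 43819.5 CPM in HSK, 49776 in HSW, 18749 in NK and 25586 in NW, and both HySu libraries were above both normoxia libraries. Its ratios were 1.95 [1.91, 1.98] for HSW over NW and 2.34 [2.29, 2.39] for HSK over NK. H2-Eb1, a class II beta chain, had 11351 CPM in HSK, 12898 in HSW, 4976 in NK and 7206 in NW, with ratios of 1.79 [1.73, 1.85] for HSW over NW and 2.28 [2.19, 2.38] for HSK over NK. H2-Aa, a class II alpha chain, was under the fold threshold in wild type at 1.39 [1.35, 1.43] and past it in knockout at 1.60 [1.55, 1.66]. The share of thinned members with an H2-Eb1 UMI was 94.0% in HSK, 91.6% in HSW, 81.8% in NK and 82.4% in NW. Lymphocytes, some of them B cells that express it, had shares of 56.9% in HSK, 71.3% in HSW, 68.8% in NK and 73.5% in NW.

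The promoters of H2-Aa and H2-Eb1 are shown because both chains had ratios above 1 in both genotypes and class II promoters are known to share short boxes. The sequences are those of RefSeq on GRCm38.p6, 250 bases before to 50 after the annotated start. H2-Aa lies on the minus strand at chr17:34287774-34288073 and H2-Eb1 on the plus strand at chr17:34305617-34305916. Capitals mark the core of the Y box, CTGATTGG, which begins 51 bases before the start of H2-Aa and 62 bases before that of H2-Eb1.
H2-Aa: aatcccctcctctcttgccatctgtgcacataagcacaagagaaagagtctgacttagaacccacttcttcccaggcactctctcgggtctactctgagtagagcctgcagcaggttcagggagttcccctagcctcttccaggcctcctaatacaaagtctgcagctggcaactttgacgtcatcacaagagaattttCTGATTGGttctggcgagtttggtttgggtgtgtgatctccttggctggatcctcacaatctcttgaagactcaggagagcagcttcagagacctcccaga
H2-Eb1: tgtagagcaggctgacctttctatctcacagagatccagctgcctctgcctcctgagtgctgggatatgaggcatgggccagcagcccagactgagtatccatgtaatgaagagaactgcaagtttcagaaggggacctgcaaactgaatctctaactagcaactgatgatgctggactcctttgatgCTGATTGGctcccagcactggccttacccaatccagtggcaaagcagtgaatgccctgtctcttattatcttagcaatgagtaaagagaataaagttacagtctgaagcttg
On either strand CTGATTGG stands in 1346 of 32851 RefSeq promoters of this length, or 4.1%.

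The aryl hydrocarbon receptor is a sensor of planar aromatic compounds, and SU5416 is a known ligand of it. Direct targets of this receptor were higher under HySu in members. By summed CPM they were more so in all lymphocytes and in the whole libraries. Of 9 genes listed, 2 of 4 measured rose in HSW against NW and 3 of 7 rose in HSK against NK, and 0 fell in either. The list median was 1.69 in wild type and 0.54 in knockout, and the knockout value turned to -0.42 under strict bounds on other cell types and to -0.06 without the highest cell of each gene. The 9 genes summed to 333 CPM in HSK, 281 in HSW, 222 in NK and 172 in NW in members. In all lymphocytes, which were not bounded for other cell types, they summed to 874 in HSK, 1075 in HSW, 224 in NK and 193 in NW. In the whole libraries the sums were 569 in HSK, 911 in HSW, 211 in NK and 190.0 in NW. The part of RNA from other cells was not tested. Cyp1a1, a cytochrome that oxidizes such compounds, had 35 UMIs in HSK, 49 in HSW, 9 in NK and 3 in NW. All 4 libraries had few molecules, and the HySu libraries had more, with ratios of 13.9 [4.48, 69.7] for HSW over NW and 4.14 [1.95, 9.79] for HSK over NK. Among thinned members the share with a Cyp1a1 UMI was 20.5% [12.4, 30.8] in HSK, 21.1% [13.4, 30.6] in HSW, 4.55% [0.947, 12.7] in NK and 0% (0 of 68 cells, which allows up to 4.41%) in NW, and unthinned it was 26.5% in HSK, 24.0% in HSW, 5.69% in NK and 1.98% in NW. Among all lymphocytes it was 33.0% in HSK, 31.9% in HSW, 8.18% in NK and 2.27% in NW, and among the restricted ones 26.2% in HSK, 19.4% in HSW, 4.33% in NK and 0.697% in NW, so the Cyp1a1 UMIs of members are read as background. Ahrr, which represses the receptor, had 22 UMIs in HSK, 26 in HSW, 2 in NK and 3 in NW, with ratios of 7.37 [2.26, 38.0] for HSW over NW and 11.7 [2.88, 103] for HSK over NK. The share of thinned members with an Ahrr UMI was 12.0% [5.93, 21.0] in HSK, 11.6% [5.92, 19.8] in HSW, 1.52% [0.0384, 8.16] in NK and 0% (0 of 68 cells, which allows up to 4.41%) in NW. Unthinned, it was 14.5% in HSK, 14.9% in HSW, 1.63% in NK and 1.98% in NW. In lymphocytes it was 0% (0 of 65 cells, which allows up to 4.62%) in HSK, 0.775% in HSW, 0% (0 of 208 cells, which allows up to 1.44%) in NK and 0% (0 of 287 cells, which allows up to 1.05%) in NW. Among all lymphocytes it was 2.09% in HSK, 2.44% in HSW, 0.264% in NK and 0.134% in NW, so both HySu libraries stood above both backgrounds. The wild-type call of Ahrr ended after thinning and the knockout call ended under strict bounds on other cell types and without its highest cell. Cyp1b1, a cytochrome of the same family, had 20 UMIs in HSK, 16 in HSW, 1 in NK and 1 in NW, and its knockout call ended under several of the same settings. Among thinned members the share with a Cyp1b1 UMI was 12.0% in HSK, 8.42% in HSW, 1.52% in NK and 1.47% in NW, against 21.99% in HSK, 21.95% in HSW, 0.792% in NK and 0.534% in NW among all lymphocytes and 7.69% in HSK, 6.98% in HSW, 0.481% in NK and 0.348% in NW among the restricted ones. The HySu shares of Cyp1b1 in members were under those of all lymphocytes.

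The promoter of Ahrr, on the minus strand at chr13:74292282-74292581 of GRCm38.p6, is shown because a match to the core of the response element of this receptor lies close to its start. Capitals mark TCGCGTG, a match to TNGCGTG that begins 29 bases before the start.
Ahrr: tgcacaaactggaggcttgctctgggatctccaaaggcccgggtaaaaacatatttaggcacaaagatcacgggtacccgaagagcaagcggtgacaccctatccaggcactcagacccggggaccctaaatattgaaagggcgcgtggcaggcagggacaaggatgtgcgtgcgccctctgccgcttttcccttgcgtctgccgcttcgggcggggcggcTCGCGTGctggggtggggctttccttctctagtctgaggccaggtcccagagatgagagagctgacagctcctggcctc
The letters TNGCGTG were found on either strand in 1664 of 32851 RefSeq promoters of this length, or 5.07%.

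Mitochondrially encoded genes of the respiratory chain rose under HySu in both genotypes. Of the mitochondrially encoded genes, 5 of 7 measured rose in HSW against NW, with a median log2 ratio of 0.65, and 6 of 7 rose in HSK against NK, with a median of 1.10. Mt-encoded cytochrome b, mt-Cytb, had 2997 CPM in HSK, 3599 in HSW, 1022 in NK and 1706 in NW. Of 51 nuclear genes of the respiratory chain, 4 rose and 9 fell in HSW against NW, and 17 rose and 3 fell in HSK against NK. Scaled by TMM the nuclear genes gave 12 higher and 2 lower in wild type and 38 higher and 2 lower in knockout. The mitochondrial genes were also higher in other cells. Their median in alveolar macrophages was 0.48 for HSW over NW and 1.02 for HSK over NK, and in classical monocytes 0.87 for HSW over NW and 1.31 for HSK over NK. Mitochondrial RNA is also a measure of cell quality, and its part in these values was not tested.

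More macrophage transcription factor genes fell than rose under HySu, while the inflammasome list depended on the scaling. Of the macrophage transcription factors listed, 11 of 26 fell and 0 rose in HSW against NW, and 14 of 27 fell and 2 rose in HSK against NK. Scaled by TMM the counts were 5 lower and 0 higher in wild type and 9 lower and 5 higher in knockout. Cebpb, a factor of inflammatory and emergency programmes, had 75.4 CPM in HSK, 66.2 in HSW, 225 in NK and 138 in NW, with ratios of 0.481 [0.335, 0.683] for HSW over NW and 0.335 [0.234, 0.471] for HSK over NK. Nr4a1, an early-response nuclear receptor, had ratios of 0.421 for HSW over NW and 0.412 for HSK over NK. Il1b, the cytokine interleukin 1 beta, had 193 CPM in HSK, 290.1 in HSW, 527 in NK and 645 in NW, lower in both HySu libraries than in both normoxia libraries. Of the inflammasome and NF-kB genes, 9 of 24 fell and 4 rose in HSW against NW, and 10 of 24 fell and 0 rose in HSK against NK, or with TMM factors 4 lower and 7 higher in wild type and 5 lower and 5 higher in knockout.

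Immediate early genes, which respond within minutes to handling as well as to stimuli, depended on the scaling. In HSW against NW 10 of 22 fell and in HSK against NK 12 of 22 fell, while with TMM factors 2 fell in wild type and 4 in knockout. Fos, a component of the AP-1 factor, had 2468 CPM in HSK, 2772 in HSW, 4537 in NK and 4473 in NW, and its calls in both genotypes ended with TMM factors.

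Genes for the clearance of dying cells and genes induced by glucocorticoids fell under HySu in the knockout, and in wild type this depended on the scaling. Of the efferocytosis and scavenger receptor genes, 6 of 18 fell in HSW against NW and 12 of 19 fell in HSK against NK, with 0 higher in either. Scaled by TMM the counts were 0 higher and 2 lower in wild type and 3 higher and 8 lower in knockout. Their median log2 ratio was -0.47 in wild type, close to that of all genes, and -1.03 in knockout. Of the glucocorticoid-induced genes, 6 of 14 fell and 1 rose in HSW against NW, and 10 of 15 fell and 1 rose in HSK against NK, with a median of -0.30 for HSW over NW and -1.27 for HSK over NK. With TMM factors the wild-type median turned to 0.08, with 4 higher and 2 lower, and the knockout median was -0.83, with 1 higher and 8 lower. In the knockout this list was also lower in other cells, with medians of -0.78 in alveolar macrophages and -0.93 in classical monocytes. Mt2, a metallothionein, had 50 UMIs in HSK, 67 in HSW, 129 in NK and 49 in NW and an HSK to NK ratio of 0.413 [0.291, 0.576]. Klf9, a transcription factor, had 20 UMIs in HSK, 24 in HSW, 85 in NK and 39 in NW and an HSK to NK ratio of 0.250 [0.146, 0.411]. Lrp1, a large endocytic receptor, had 226 CPM in HSK, 216 in HSW, 586 in NK and 323 in NW and an HSK to NK ratio of 0.386 [0.315, 0.472]. In each of these 3 genes NK was the highest library. The difference between genotypes was not tested.

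Other lists had calls in both directions or depended on the scaling. Of the antioxidant genes 2 of 21 rose and 2 fell in HSW against NW, and 8 of 21 rose and 2 fell in HSK against NK, or with TMM factors 5 higher and 1 lower in wild type and 12 higher and 2 lower in knockout. Gstp1, a glutathione transferase, had 77.1 CPM in HSK, 70.0 in HSW, 15.7 in NK and 20.9 in NW and rose 3.34 [1.83, 6.51]-fold in HSW over NW and 4.90 [2.44, 10.9]-fold in HSK over NK. Of the interferon response genes 5 of 24 rose and 6 fell in HSW against NW, and 3 of 23 rose and 8 fell in HSK against NK, with lower shares near the 28.1% of all genes in wild type and 33.3% in knockout. With TMM factors the interferon counts were 7 higher and 3 lower in wild type and 5 higher and 5 lower in knockout. Of the MHC class I genes 0 of 17 rose in either genotype by total counts, while 6 rose in wild type and 5 in knockout with TMM factors. The Lyve1 subset genes gave 1 higher and 5 lower of 13 in HSW against NW, and 2 higher and 9 lower of 15 in HSK against NK, or 2 higher and 1 lower in wild type and 4 higher and 5 lower in knockout with TMM factors. The summed genes of classical monocytes were lower under HySu, as given below. Members with monocyte genes are those with at least 0.2% of UMIs in Ly6c2, F13a1, Ccr2 and Vcan together. They numbered 12 of 83 in HSK, 18 of 121 in HSW, 35 of 123 in NK and 32 of 101 in NW. Without them 336 of all genes were higher and 1662 lower in HSW against NW. In HSK against NK it was 560 higher and 1883 lower. The part of monocyte genes in the list counts above was not tested.

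Replication genes fell under HySu in wild type. Of 28 cell cycle genes listed, 18 of 21 measured fell and 0 rose in HSW against NW, with a median log2 ratio of -1.79, while 4 of 17 fell and 1 rose in HSK against NK, with a median of 0.11. With TMM factors 16 fell and 0 rose in wild type, while in knockout 4 rose and 3 fell, with a median of 0.54, so the balance in knockout turned with the scaling. The counts of the 2 genotypes were not tested against each other. Mcm3, a subunit of the replicative helicase, had 19 UMIs in HSK, 18 in HSW, 70 in NK and 65 in NW, with ratios of 0.236 [0.131, 0.402] for HSW over NW and 0.289 [0.164, 0.485] for HSK over NK. Top2a, the topoisomerase of dividing cells, had 37 UMIs in HSK, 20 in HSW, 35 in NK and 101 in NW, from 6 cells in HSK, 6 in HSW, 9 in NK and 13 in NW. The 16 mitosis genes counted together rested on few cells. Cells with at least 3 of these genes were 3 of 83 thinned members in HSK, 4 of 95 in HSW, 3 of 66 in NK and 7 of 68 in NW, or 3.61% [0.752, 10.2] in HSK, 4.21% [1.16, 10.4] in HSW, 4.55% [0.947, 12.7] in NK and 10.3% [4.24, 20.1] in NW. Unthinned shares were 3.61% in HSK, 3.31% in HSW, 4.07% in NK and 8.91% in NW. The 3 cells with most such UMIs held 80.6% of them in HSK, 64.6% in HSW, 69.3% in NK and 74.1% in NW.

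Rcbtb2 was among the 8 genes named by size as higher in HSW against NW. In HSK against NK it was named only in a second set, chosen after seeing the data and limited to genes with at most 25% of their UMIs in 1 cell. It had 253 CPM in HSK, 272 in HSW, 50.4 in NK and 61.3 in NW and was seen in 54 cells in HSK, 72 in HSW, 22 in NK and 22 in NW. The gene was seen in most members under HySu and in few in normoxia, with ratios of 4.44 [3.17, 6.36] for HSW over NW and 5.02 [3.41, 7.6] for HSK over NK. Spint1, an inhibitor of the protease that activates hepatocyte growth factor, had 198 CPM in HSK, 199.8 in HSW, 50.4 in NK and 49.4 in NW and rose 4.05 [2.77, 6.08]-fold in HSW over NW and 3.92 [2.64, 6.0]-fold in HSK over NK. Ly96, the partner of the endotoxin receptor, rose 3.71 [1.90, 7.92]-fold in HSW over NW and 2.74 [1.59, 4.94]-fold in HSK over NK. Suclg1, a subunit of an enzyme of the citric acid cycle named from the second set in both genotypes, rose 3.54-fold in HSW over NW and 4.42-fold in HSK over NK. Malt1, the protease of an NF-kB signalling complex, was among the lowest in HSW over NW, with 4 UMIs in HSK, 3 in HSW, 10 in NK and 37 in NW. Siglech, a sialic acid binding lectin best known from plasmacytoid dendritic cells, and Atp2a3, a calcium pump of the endoplasmic reticulum, were among the lowest in HSK over NK, with 1 UMI in HSK, 35 in HSW, 36 in NK and 34 in NW for Siglech and 2 UMIs in HSK, 12 in HSW, 44 in NK and 14 in NW for Atp2a3. Mdn1, a large factor of ribosome assembly, had 1 UMI in HSK, 12 in HSW, 32 in NK and 38 in NW. Cyr61, a matrix-associated protein, and Ch25h, which makes an oxysterol, were among the lowest in HSK over NK, with 5 UMIs in HSK, 15 in HSW, 92 in NK and 23 in NW for Cyr61 and 4 UMIs in HSK, 21 in HSW, 47 in NK and 9 in NW for Ch25h. Ch25h in HSK over NK was no longer called after thinning.

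Many of the largest ratios came from single cells. Over 25% of a gene's UMIs lay in 1 cell for 4 of 8 genes named as higher and 7 of 8 named as lower in HSW against NW. In HSK against NK this was 8 of 8 higher and 3 of 8 lower. The 8 genes with the largest ratios in HSK over NK were Sec14l3, Ltf, Tmem212, Pcp4l1, Tspan1, Igfbp2, Meig1 and Dynlrb2, several of which are genes of ciliated airway cells. The 9 genes of this kind that were summed had 499 UMIs in HSK, 17 in HSW, 5 in NK and 7 in NW, and 1 HSK cell held 65.9% of the 499. In HSW 1 cell held 48.6% of the Ifitm1, 88.1% of the Retnla and 79.9% of the Saa3 UMIs, and Arg1, the arginase of repair macrophages, had 1 UMI in HSK, 52 in HSW, 15 in NK and 1 in NW with 34.6% of the HSW UMIs in 1 cell. Among genes named as lower, Ccl17, Ccl22, Bpifa1, Chaf1a, Ube2c, B4galt3 and Cenpf in HSW against NW and Saa3, Prg4 and Cd5l in HSK against NK rested on 1 cell in this way. With the highest cell of each gene left out of each library, 291 of 374 higher calls and 1569 of 1993 lower calls of HSW against NW remained, and 466 of 627 higher and 1984 of 2300 lower calls of HSK against NK.

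Ccl12 and Ccl8, chemokines that attract monocytes and other leukocytes, moved in opposite directions under HySu in the 2 genotypes. Ccl12, a ligand of Ccr2, had 245 CPM in HSK, 1191 in HSW, 779 in NK and 383 in NW. It was highest in HSW and lowest in HSK, with ratios of 3.11 [2.71, 3.58] for HSW over NW and 0.314 [0.259, 0.378] for HSK over NK. A single cell held 20.5% of the Ccl12 UMIs in HSK and 26.8% in HSW. The share of thinned members with a Ccl12 UMI was 27.7% [18.4, 38.6] in HSK, 40.0% [30.1, 50.6] in HSW, 28.8% [18.3, 41.3] in NK and 23.5% [14.1, 35.4] in NW. Unthinned, it was 31.3% in HSK, 40.5% in HSW, 30.1% in NK and 25.7% in NW. In lymphocytes it was 0% (0 of 65 cells, which allows up to 4.62%) in HSK, 2.33% in HSW, 0.481% in NK and 0.348% in NW. Ccl8, of the same family, had 289.9 CPM in HSK, 520.5 in HSW, 842 in NK and 192 in NW, with ratios of 2.72 [2.22, 3.34] for HSW over NW and 0.344 [0.288, 0.409] for HSK over NK. It came from few cells, 12 cells in HSK, 13 in HSW, 22 in NK and 13 in NW, and 1 cell held 40.6% of the HSW UMIs. Ccl7, of the same gene cluster, was higher in both genotypes at 638 CPM in HSK, 361 in HSW, 351 in NK and 129 in NW, with ratios of 2.81 [2.20, 3.62] for HSW over NW and 1.82 [1.54, 2.15] for HSK over NK, and its knockout call ended under strict bounds on other cell types. Of the CC chemokines listed, 5 of 12 measured rose and 3 fell in HSW against NW, and 3 of 11 rose and 3 fell in HSK against NK, or with TMM factors 7 higher and 2 lower in wild type and 5 higher and 3 lower in knockout.

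Fcgr4, an activating Fc receptor, was likewise highest in HSW, with 45.2 CPM in HSK, 137 in HSW, 78.7 in NK and 34.4 in NW. Its HSW over NW ratio was 3.99 [2.53, 6.57], and its HSK over NK ratio of 0.575 [0.346, 0.936] was no longer called with TMM factors, under strict bounds or without its highest cell. Gbp2, a GTPase induced by interferon gamma, had 6 UMIs in HSK, 38 in HSW, 39 in NK and 11 in NW, and its HSK over NK ratio of 0.164 [0.0567, 0.390] turned above 1 under strict bounds on other cell types. Hspb1, a small heat shock protein, ran the other way, with 82 UMIs in HSK, 42 in HSW, 12 in NK and 72 in NW and ratios of 0.496 [0.331, 0.736] for HSW over NW and 7.27 [3.95, 14.6] for HSK over NK. The difference between genotypes was not tested for any of these genes.

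The knockout in normoxia was compared with wild type in normoxia to ask what the loss of FUNDC1 did without the disease model. In NK against NW 11.5% of 7339 genes were higher and 7.24% were lower, with a median log2 ratio of 0.07, or 844 higher and 531 lower genes by the total count and 637 higher and 688 lower with TMM factors. The Lyve1 subset genes rose together. Of 16 listed, 11 of 13 measured rose and 0 fell, with a median of 0.89, and 8 rose with TMM factors. Cbr2 was among the 11, and its shares in members and lymphocytes are given below. In alveolar macrophages 1 of 10 rose, with a median of 0.23, and in classical monocytes 7 of 14 rose, with a median of 0.70.

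Cd163, the scavenger receptor for haemoglobin bound to haptoglobin, had 44 UMIs in HSK, 28 in HSW, 132 in NK and 33 in NW, from 8 cells in HSK, 9 in HSW, 24 in NK and 10 in NW. NK stood above the other libraries, and the NK to NW ratio was 4.21 [2.86, 6.36]. F13a1, the A subunit of coagulation factor XIII, had 279.8 CPM in HSK, 92.9 in HSW, 592 in NK and 206 in NW, with an NK to NW ratio of 2.87 [2.35, 3.51]. It is also a gene of classical monocytes. Lyve1, a hyaluronan receptor, and Folr2, a folate receptor, had NK to NW ratios of 2.00 [1.36, 2.98] for Lyve1 and 1.87 [1.40, 2.51] for Folr2, and both calls ended when members with monocyte genes were left out, that of Lyve1 also after thinning. Stab1, a scavenger receptor, rose 1.61 [1.41, 1.85]-fold, a call that ended after thinning, and Gas6, which bridges dying cells to Mertk and Axl, rose 1.88 [1.37, 2.61]-fold. A larger share of members carrying these genes was not resolved by counting. A UMI of Lyve1, Folr2, Cd163 or Timd4 was found in 22.9% [14.4, 33.4] of thinned members in HSK, 23.2% [15.1, 32.9] in HSW, 31.8% [20.9, 44.4] in NK and 23.5% [14.1, 35.4] in NW. The share with a Lyve1 UMI alone was 10.8% in HSK, 11.6% in HSW, 19.7% in NK and 14.7% in NW in thinned members, and 13.3% in HSK, 12.4% in HSW, 18.7% in NK and 17.8% in NW unthinned. Among all lymphocytes it was 15.7% in HSK, 17.7% in HSW, 6.20% in NK and 5.07% in NW, above the share of members in both HySu libraries. The part of background in the Lyve1 UMIs of members was not tested. In the restricted lymphocytes the share with a Lyve1 UMI was 3.08% in HSK, 2.33% in HSW, 6.73% in NK and 3.14% in NW, and with a Folr2 UMI it was 0% (0 of 65 cells, which allows up to 4.62%) in HSK, 0% (0 of 129 cells, which allows up to 2.33%) in HSW, 0.962% in NK and 0% (0 of 287 cells, which allows up to 1.05%) in NW.

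Genes for the clearance of dying cells and genes induced by glucocorticoids rose with them. Of the efferocytosis and scavenger receptor genes, 9 of 18 rose and 0 fell, with a median of 0.59. The list shares Cd163, Stab1, Gas6, Mrc1 and Timd4 with that of the Lyve1 subset. Mertk, the receptor tyrosine kinase through which macrophages engulf dying cells, had 25 UMIs in HSK, 20 in HSW, 59 in NK and 15 in NW, highest in NK, with an NK to NW ratio of 4.14 [2.32, 7.85]. The share of thinned members with a Mertk UMI was 13.3% [6.81, 22.5] in HSK, 12.6% [6.70, 21.0] in HSW, 24.2% [14.5, 36.4] in NK and 5.88% [1.63, 14.4] in NW. Unthinned, it was 15.7% in HSK, 12.4% in HSW, 25.2% in NK and 11.9% in NW. In the restricted lymphocytes it was 3.08% in HSK, 0.775% in HSW, 5.29% in NK and 0.697% in NW, and among all lymphocytes 10.5% in HSK, 9.53% in HSW, 12.8% in NK and 6.68% in NW, so NK was highest in both backgrounds, and the thinned NW members were at the level of all lymphocytes. Lrp1 rose 1.81 [1.53, 2.15]-fold. Of the glucocorticoid-induced genes, 9 of 15 rose and 0 fell, with a median of 0.71. Some of them rose in other cells too, 3 of 14 in alveolar macrophages and 7 of 16 in classical monocytes.

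Tsc22d3, the glucocorticoid-induced leucine zipper protein, had 322 CPM in HSK, 177 in HSW, 641 in NK and 295 in NW, and was seen in 63 cells in HSK, 66 in HSW, 104 in NK and 69 in NW. NK was the highest library, and the NK to NW ratio was 2.17 [1.83, 2.59]. Ddit4, an inhibitor of mTOR complex signalling induced by glucocorticoids and by hypoxia, had 13 UMIs in HSK, 9 in HSW, 47 in NK and 5 in NW, with an NK to NW ratio of 9.89 [3.95, 31.9]. Klf9 rose 2.29 [1.55, 3.44]-fold and Mt2 rose 2.77 [1.98, 3.93]-fold. Hmox1, which degrades haem, had 42 UMIs in HSK, 63 in HSW, 129 in NK and 50 in NW and rose 2.71 [1.94, 3.84]-fold. Maf, a transcription factor that sets macrophage identity, had 171 CPM in HSK, 158 in HSW, 510.0 in NK and 260.4 in NW, with an NK to NW ratio of 1.96 [1.62, 2.37]. Epas1, a hypoxia-inducible factor subunit, had 29 UMIs in HSK, 34 in HSW, 49 in NK and 12 in NW and rose 4.30 [2.25, 8.87]-fold. Grn, which encodes the lysosomal protein progranulin, rose 1.60-fold.

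Of the CC chemokines 6 of 12 rose and 3 fell in NK against NW, and the list median of 0.51 turned to -0.38 under strict bounds on other cell types. Ccl8, Ccl12 and Ccl7 rose, with ratios of 4.40 [3.62, 5.38] for Ccl8, 2.03 [1.75, 2.37] for Ccl12 and 2.73 [2.12, 3.54] for Ccl7. Ccr1, a receptor for several CC chemokines, rose 2.17 [1.51, 3.16]-fold, and Cxcr4, the receptor for Cxcl12, 1.91 [1.48, 2.49]-fold. Ccr2, the receptor that brings monocytes from blood into tissue, fell, with 379 CPM in HSK, 668 in HSW, 786 in NK and 1342 in NW. NW was highest and HSK lowest, and the Ccr2 ratio was 0.585 [0.524, 0.654] for NK over NW. The share of thinned members with a Ccr2 UMI was 43.4% [32.5, 54.7] in HSK, 57.9% [47.3, 68.0] in HSW, 56.1% [43.3, 68.3] in NK and 73.5% [61.4, 83.5] in NW. Unthinned, it was 45.8% in HSK, 58.7% in HSW, 54.5% in NK and 78.2% in NW. In lymphocytes, some of which express it, it was 23.1% in HSK, 12.4% in HSW, 30.3% in NK and 38.3% in NW. Of the CXC chemokines, 0 of 9 rose and 4 fell. Cxcl13, which attracts B cells, had 3 UMIs in HSK, 77 in HSW, 153 in NK and 373 in NW, and its NK to NW ratio of 0.432 [0.355, 0.522] turned above 1 after thinning.

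Some respiratory chain genes fell in NK against NW. Of the mitochondrially encoded genes 4 of 7 fell and 0 rose, with a median log2 ratio of -0.73, and the medians were -0.74 in alveolar macrophages and -0.46 in classical monocytes. The mt-Cytb ratio was 0.599 [0.543, 0.660]. Of 51 nuclear genes 10 fell and 1 rose. Cyc1, which encodes cytochrome c1, had 71 UMIs in HSK, 53 in HSW, 32 in NK and 87 in NW and an NK to NW ratio of 0.387 [0.250, 0.586]. Cell cycle genes also fell, by 11 of 21 with 0 higher, on the few dividing cells given above. Other cell types moved with this comparison. The 7 lymphocyte genes summed to 50.3 CPM in HSK, 56.0 in HSW, 228 in NK and 114 in NW in members, the 4 fibroblast genes to 28.5 CPM in HSK, 21.6 in HSW, 104 in NK and 31.4 in NW and the 6 classical monocyte genes to 1004 CPM in HSK, 1343 in HSW, 1836 in NK and 1939 in NW, and their part in the results was not tested.

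**Figure D4:**
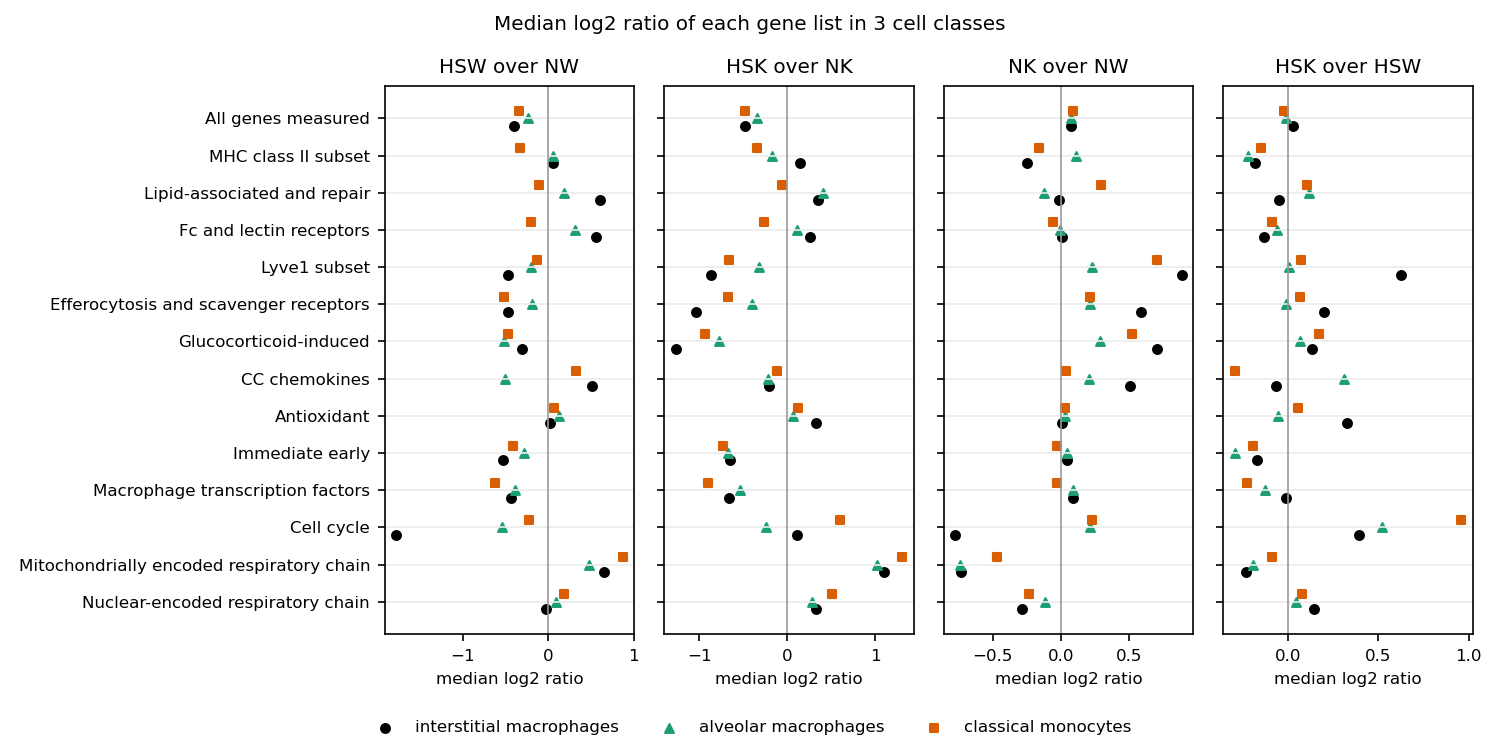
Median log2 ratio of 13 gene lists and of all genes measured, in 1 panel per pair of libraries, for interstitial macrophages (black circles), alveolar macrophages (green triangles) and classical monocytes (orange squares). The vertical line is a ratio of 1. In NK over NW the Lyve1 subset, efferocytosis and glucocorticoid-induced lists lie to the right for interstitial macrophages, at 0.89 for the Lyve1 subset, 0.59 for efferocytosis and 0.71 for glucocorticoid-induced genes, and the mitochondrially encoded genes lie to the left in all 3 cell classes.

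The plot of list medians sets each group beside the same genes in the other myeloid cells of the library. Genes named by size in NK against NW were Prg4, Cd5l, Pde5a, Klra8, Ddit4, Saa3, Dcn and Ch25h as higher, of which 6 of 8 had over 25% of their UMIs in 1 cell. Named as lower were Cxcl9, Ccl22, Chaf1a, Thap12, Bpifa1, Hspb1, Ube2c and Prc1, of which again 6 of 8 did. Ch25h was spread over 4 cells in HSK, 15 in HSW, 25 in NK and 6 in NW, with an NK to NW ratio of 5.49 [2.66, 12.8] that was no longer called after thinning. Hspb1 had an NK to NW ratio of 0.175 [0.0866, 0.325]. Without the highest cell of each gene, 653 of 844 higher calls and 372 of 531 lower calls remained.

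The knockout under HySu was compared with wild type under HySu. In HSK against HSW 8.76% of 6449 genes were higher and 6.22% were lower, or 565 higher and 401 lower, and with TMM factors 489 were higher and 463 lower. The median log2 ratio of all genes measured was 0.03. Genes of the Lyve1 subset were higher again by count, with 7 of 14 higher, 0 lower and a median of 0.62, against 0.01 in alveolar macrophages and 0.07 in classical monocytes. The 7 were Lyve1, Folr2, Cd163, Stab1, Cbr2, Cd209f and F13a1. The share of thinned members with a Cbr2 UMI was 47.0% in HSK, 37.9% in HSW, 60.6% in NK and 48.5% in NW. Among all lymphocytes it was 49.2% in HSK, 39.9% in HSW, 53.7% in NK and 46.9% in NW. In both HySu libraries the Cbr2 share of members was under that of all lymphocytes, and the part of background was not tested. Among the restricted lymphocytes the share was 38.5% in HSK and 27.9% in HSW. Stab1 had 751 CPM in HSK, 426 in HSW, 858 in NK and 533 in NW and an HSK to HSW ratio of 1.76 [1.52, 2.03], and F13a1 had a ratio of 3.01 [2.27, 4.02]. The Cd163 ratio of 2.07 [1.26, 3.45] was no longer called under strict bounds or without members with monocyte genes, and that of Lyve1, 2.63 [1.63, 4.35], without those members or without the HSK cell that held 55.6% of its UMIs, and the Lyve1 share in both libraries was under that of all lymphocytes. Tsc22d3 was 1.82 [1.45, 2.28]-fold higher.

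Some antioxidant genes rose in HSK against HSW. Of 25 listed, 6 of 21 measured rose and 0 fell, with a median of 0.33, against -0.05 in alveolar macrophages and 0.05 in classical monocytes. Prdx6, a peroxiredoxin that also acts on phospholipids, had 295 CPM in HSK, 81.4 in HSW, 112 in NK and 91.3 in NW. HSK stood above the other libraries, and the HSK to HSW ratio was 3.62 [2.71, 4.90]. Gstm1, a glutathione transferase, had 255 CPM in HSK, 85.3 in HSW, 94.5 in NK and 85.3 in NW and a ratio of 2.99 [2.23, 4.04], and Mgst1, a microsomal glutathione transferase, had 173 CPM in HSK, 58.5 in HSW, 55.1 in NK and 50.9 in NW and a ratio of 2.95 [2.06, 4.27]. Cat, the catalase, rose 2.40 [1.48, 3.95]-fold and Gclm, a subunit of the enzyme that limits glutathione synthesis, 2.49 [1.39, 4.6]-fold. In HSK 1 cell held 30.1% of the Prdx6, 37.5% of the Gstm1 and 18.4% of the Mgst1 UMIs, and without the highest cell of each gene the log2 ratios of HSK over HSW were 1.55 for Prdx6, 1.08 for Gstm1 and 1.42 for Mgst1. These enzymes are also abundant in airway and alveolar epithelium. Scgb1a1 and the ciliated genes were highest in HSK, as given above, and the part of epithelial RNA was not tested.

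Some genes of interferon response and antigen processing fell in HSK against HSW, and CC chemokines were called in both directions. Tap1, a subunit of the transporter that loads peptide on MHC class I, had 17 UMIs in HSK, 63 in HSW, 54 in NK and 62 in NW, lowest in HSK, with an HSK to HSW ratio of 0.355 [0.195, 0.615]. Of 18 MHC class I genes 4 of 17 fell and 0 rose, with a median of -0.22. Oasl2 and Isg15, both induced by type I interferon, had 6 UMIs in HSK, 39 in HSW, 31 in NK and 24 in NW for Oasl2 and 6 UMIs in HSK, 32 in HSW, 18 in NK and 19 in NW for Isg15, with HSK to HSW ratios of 0.203 [0.0701, 0.482] for Oasl2 and 0.247 [0.0844, 0.599] for Isg15. Of the interferon response genes measured, 3 of 24 fell and 1 rose. Of 10 CC chemokines measured, 2 fell, Ccl8 and Ccl12, and 1 rose, Ccl7. Ccl12 had an HSK to HSW ratio of 0.205 [0.171, 0.245], Fcgr4 0.329 [0.207, 0.506] and Gbp2 0.208 [0.0718, 0.496]. Arg1 was at 0.0253 [0.000629, 0.147] and Cxcl13 at 0.0513 [0.0104, 0.156], each on few cells. Bach1, a repressor of haem and antioxidant genes, had 31 UMIs in HSK, 79 in HSW, 91 in NK and 59 in NW and a ratio of 0.517 [0.330, 0.792], and Myc, a growth transcription factor, had 9 UMIs in HSK, 35 in HSW, 32 in NK and 27 in NW and a ratio of 0.339 [0.143, 0.718]. Ccr2 had a ratio of 0.567 [0.483, 0.664] that was no longer called under strict bounds.

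The genes named by size as higher in HSK against HSW were Fam183b, Pcp4l1, Igfbp2, Ccdc153, Sec14l3, Tspan1, Meig1 and Dynlrb2. Of these 8 genes, 8 had over 25% of their UMIs in 1 cell, and most are genes of ciliated cells. Named as lower were Saa3, Arg1, Cxcl13, Retnla, Ccl12, Hilpda, Sp3os and N6amt1, of which 6 of 8 rested on 1 cell in this way. Without the highest cell of each gene, 310 of 565 higher calls and 298 of 401 lower calls remained.

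Within every library the members differed among themselves along the division into Lyve1 and MHC class II cells. Thinned members with a UMI of Lyve1, Folr2, Cd163 or Timd4 numbered 19 of 83 in HSK, 22 of 95 in HSW, 21 of 66 in NK and 16 of 68 in NW. Set against members with none of these, they had higher levels of several genes that did not enter the split. The ratio of Gas6 was 9.26 [4.66, 19.7] in HSK, 14.7 [7.04, 34.6] in HSW, 12.1 [5.62, 29.6] in NK and 19.5 [6.70, 77.3] in NW. That of Mrc1, the mannose receptor, was 4.37 [3.39, 5.65] in HSK, 2.67 [2.09, 3.41] in HSW, 5.07 [4.05, 6.38] in NK and 3.41 [2.70, 4.31] in NW. Pf4, a chemokine of platelets and tissue macrophages, had ratios of 6.61 [5.95, 7.35] in HSK, 3.45 [3.09, 3.86] in HSW, 5.04 [4.36, 5.83] in NK and 8.87 [7.42, 10.6] in NW. Genes of MHC class II were lower in the same cells of all 4 libraries. The ratio of H2-Eb1 was 0.573 [0.527, 0.622] in HSK, 0.395 [0.362, 0.429] in HSW, 0.354 [0.306, 0.409] in NK and 0.393 [0.346, 0.445] in NW, and that of Cd74 was 0.555 [0.532, 0.579] in HSK, 0.468 [0.450, 0.487] in HSW, 0.436 [0.407, 0.466] in NK and 0.437 [0.410, 0.466] in NW. Mmp12, the macrophage elastase, had ratios of 0.127 [0.0405, 0.303] in HSK, 0.255 [0.107, 0.522] in HSW, 0.393 [0.273, 0.553] in NK and 0.615 [0.408, 0.902] in NW. In HSK, HSW and NK Ccl8 came mainly from the cells with a Lyve1 subset UMI, at 128 UMIs against 1 in HSK, 286 against 18 in HSW and 367 against 14 in NK. In NW the Ccl8 UMIs were divided nearly evenly, at 52 against 48. F13a1 UMIs lay mostly in cells with a Lyve1 subset UMI in each library, at 111 UMIs against 16 in HSK, 51 against 1 in HSW, 179 against 34 in NK and 52 against 21 in NW. These cells were split by their own values, so the ratios are a description and carry no test between groups.

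**Figure D5:**
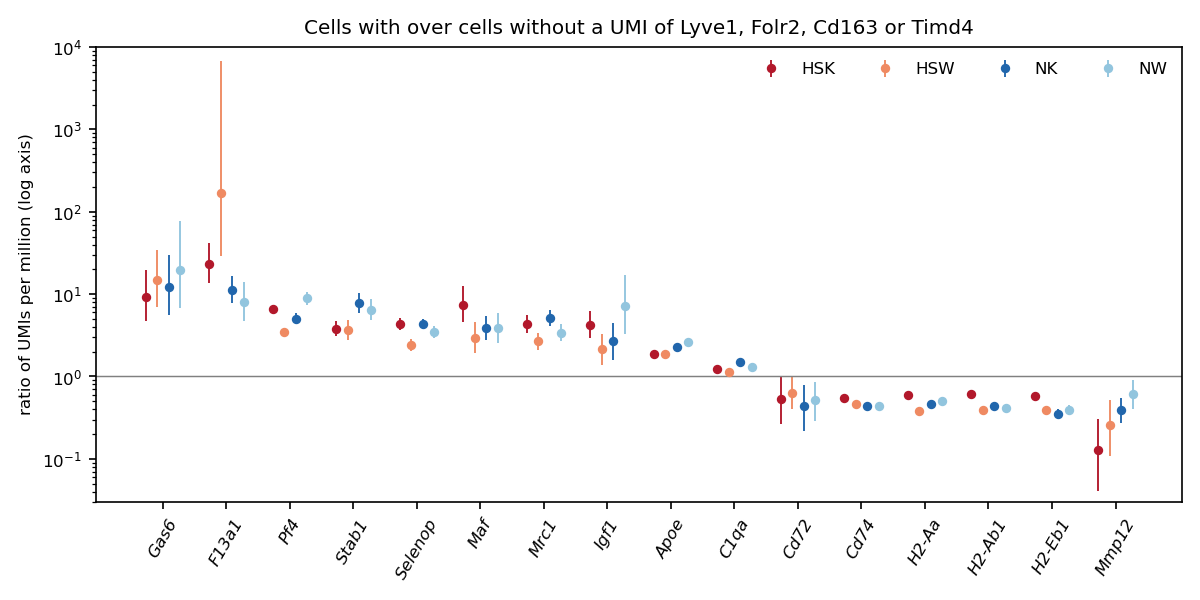
Ratio of CPM in members with a UMI of Lyve1, Folr2, Cd163 or Timd4 over members with none, for 16 genes on a log axis, with HSK, HSW, NK and NW from left to right for each gene. Whiskers are exact 95% intervals of counting error after thinning to 4726 UMIs per cell. Gas6 to C1qa lie above 1 and Cd72 to Mmp12 below 1 in all 4 libraries.

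Of 34 genes compared, 25 had ratios on 1 side of 1 in all 4 libraries, and the 16 plotted were taken from these after their values were seen. Ratios lay on both sides of 1 for the 7 genes Cx3cr1, Cxcl13, Fabp5, Fn1, Hmox1, Lpl and Mertk, and Ccl24 and Gpnmb had no ratio in at least 1 library. Mertk had ratios of 5.24 in HSK, 0.905 in HSW, 2.27 in NK and 13.0 in NW, and Hmox1 had ratios of 0.777 in HSK, 1.26 in HSW, 2.34 in NK and 2.6 in NW. C1qa, a gene of the membership rule, was closer to 1, with ratios of 1.25 [1.12, 1.39] in HSK, 1.15 [1.04, 1.26] in HSW, 1.48 [1.34, 1.64] in NK and 1.29 [1.16, 1.44] in NW. Fn1, fibronectin, had ratios of 0.168 [0.0197, 0.649] in HSK, 29.4 [16.9, 55.3] in HSW, 6.31 [4.29, 9.48] in NK and 0.258 [0.0810, 0.634] in NW.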

How the data were processed

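The deposited matrices hold whole-number counts of UMIs per gene and cell, 1 matrix per library, with gene IDs and symbols. STAR 2.6.1a, cutadapt 1.17, featureCounts 2.0.1 and Scanpy, with the genome builds GRCm38 and mm10, are named in the submitters' processing notes. The filter that set the lowest count per cell is not given in the sources used here.

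The members and gene lists were chosen with earlier results of these data known. Cell types were taken by rule and not by clustering. Counts were summed over member cells per library and scaled to a total of 1000000 (CPM). Each ratio of CPM has an exact conditional binomial 95% interval (Clopper-Pearson), and each share above 0 an exact Clopper-Pearson interval. For a share of 0 the limit given is 3 cells of the number counted. A list median is the median log2 ratio, with 0.5 UMI added to each count, over list genes with at least 20 UMIs in the pair. No test between groups was made, since each group is 1 library. The 4 comparisons share libraries in part. HSW against NW shares none with HSK against NK, and NK against NW shares none with HSK against HSW. The calculation was tested on simulated counts. These were independent Poisson counts, as the intervals assume, so the test checks the arithmetic only. It does not cover UMIs concentrated in single cells.

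Genes named by size were, per pair and direction, the 8 with the most extreme ratio among genes with at least 30 UMIs in the pair, at least 50 CPM in 1 library and an interval that excludes 1. Their level in the higher library had to be at least 30% of that in alveolar macrophages, classical monocytes, lymphocytes and the whole library. Mitochondrial, ribosomal, haemoglobin, antigen receptor, surfactant, unnamed predicted and rule genes were left out. Members of the gene lists could be named as well. A second set, in which the highest cell holds at most 25% of the gene's UMIs, the alternative without the highest cell of each gene, and the set of lymphocytes free of other cell types' genes were chosen after seeing the data. Rcbtb2, Lgals3 and Suclg1 were named from this second set among others.

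Shares of cells with a UMI were taken after each cell was thinned to 4726 UMIs, the highest of the library minimums, which left out 0 members in HSK, 26 in HSW, 57 in NK and 33 in NW. Scrublet, run per library, called 30 cells in HSK, 15 in HSW, 3 in NK and 4 in NW, under 0.5% of cells in HSW, NK and NW, so doublets were in effect not removed by it. Alternatives were TMM factors, no minimum of UMIs, 1% of rule genes, strict bounds on other cell types, cells of at least 4726 UMIs, thinned cells, members without monocyte genes and cells not called doublets. Python 3.11.15, numpy 2.4.6, scipy 1.17.1, pandas 2.3.3, scanpy 1.11.5, matplotlib 3.10.9, R 4.3.3 and edgeR 4.0.16 were used.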

Additional observations from a re-analysis of the deposited data

Results flagged for a closer look

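In the interstitial macrophages 59 genes were past the fold rule in opposite directions under HySu in wild type and knockout. Of 330 genes that rose in wild type 30 fell in knockout, where 33.8% of all genes measured in both fell. Of 1815 genes that fell in wild type 29 rose in knockout, where 8.61% of all genes rose. Opposite calls were thus rarer than these background shares. The 10 of the 59 genes that belong to a gene list or were named by size are given here. The difference between genotypes was not tested, since each group is 1 library.

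The genes that were higher in HSW than NW and lower in HSK than NK included chemokines. Ccl12 had ratios of 3.11 for HSW over NW and 0.314 for HSK over NK, and Ccl8 had 2.72 for HSW over NW and 0.344 for HSK over NK. A single HSW cell held 26.8% of the Ccl12 UMIs of that library. Fcgr4 had 3.99 for HSW over NW and 0.575 for HSK over NK, and Gbp2 had 2.94 for HSW over NW and 0.164 for HSK over NK. Saa3, an acute phase protein, had 0 UMIs in HSK, 492 in HSW, 476 in NK and 72 in NW. Its HSW over NW ratio was 5.81 [4.53, 7.55], its HSK over NK ratio was 0, and HSK was at least 149-fold lower than NK against a floor of 3 UMIs. In NK 1 cell held 97.3% of the Saa3 UMIs and in HSW 1 cell held 79.9%.

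The genes that were lower in HSW than NW and higher in HSK than NK had under 100 UMIs in each library. Hspb1, a small heat shock protein, had 82 UMIs in HSK, 42 in HSW, 12 in NK and 72 in NW, with ratios of 0.496 [0.331, 0.736] for HSW over NW and 7.27 [3.95, 14.6] for HSK over NK. Irf9, the DNA-binding partner of the interferon-activated STAT factors, had 46 UMIs in HSK, 42 in HSW, 27 in NK and 73 in NW, with ratios of 0.489 [0.327, 0.725] for HSW over NW and 1.81 [1.10, 3.03] for HSK over NK. In both, HSK and HSW lay between NK and NW or above them. Cyc1, cytochrome c1, had 71 UMIs in HSK, 53 in HSW, 32 in NK and 87 in NW, with ratios of 0.518 [0.361, 0.737] for HSW over NW and 2.36 [1.54, 3.71] for HSK over NK. Sparc, a matrix glycoprotein, had 77 UMIs in HSK, 11 in HSW, 54 in NK and 39 in NW, with ratios of 0.240 [0.111, 0.478] for HSW over NW and 1.52 [1.06, 2.19] for HSK over NK. Cd24a, a surface glycoprotein of dendritic cells and epithelium, had 59 UMIs in HSK, 10 in HSW, 31 in NK and 27 in NW, with ratios of 0.315 [0.136, 0.671] for HSW over NW and 2.03 [1.29, 3.24] for HSK over NK. In HSK 1 cell held 76.6% of the Sparc UMIs and 66.1% of the Cd24a UMIs, and the HSK over NK ratios of both fall below 1 without the highest cell of each library. Fcgr4 and Gbp2 lost or turned the knockout call under strict bounds on other cell types.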

How the results depend on the processing

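Every comparison rests on 1 library per group and on 83 to 123 cells, so counting error is the only error that could be given, and differences between mice, captures or digestions cannot be told apart from genotype or treatment. No paired analysis was possible because each group has 1 library. Genes under 20 UMIs in a pair were not resolved. With each cell thinned to 4726 UMIs, and so with fewer cells and UMIs, 1410 genes passed the fold rule in HSW against NW in place of 2367, 1792 in HSK against NK in place of 2927, 796 in NK against NW in place of 1375 and 531 in HSK against HSW in place of 966. With no minimum of UMIs, 1523 genes passed in HSK against HSW. The other 31 counts of genes under alternatives stayed within 1.5 times the reported count. Strict bounds on other cell types, which remove members with any lymphocyte, endothelial or fibroblast UMI or at least 1% of surfactant UMIs, turned the ratio of shares in NK over NW to 0.725, and the other 15 ratios of shares moved within their intervals.

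Of 1212 medians of gene lists under alternatives, 6 turned the sign of a reported median of at least 0.5 in size, and the cause was not tested. Under strict bounds these were the interferon response in HSK over NK at 0.41, the aryl hydrocarbon receptor targets in HSK over NK at -0.42, the non-classical monocyte genes in NK over NW at -0.13 and the CC chemokines in NK over NW at -0.38. The aryl hydrocarbon receptor targets stood at -0.059 without the highest cell of each gene, and the classical monocyte genes in HSK over HSW at 0.29 without members with monocyte genes.

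Of 2556 log2 ratios of named genes under alternatives, 261 lost the call and 24 changed sign, and the cause was not tested. In HSK over NK, requiring 1% of rule genes gave -0.21 for Cd24a, -0.0195 for Igfbp2, -1.91 for Sparc and -0.0195 for Tmem212. The same setting gave 0.14 for Cenpf and -0.30 for Fn1 in NK over NW, and -0.19 for Scgb1a1 and -2.67 for Tmem212 in HSK over HSW. Strict bounds gave -0.64 for Retnla in HSW over NW, and 1.35 for Cd5l, 0.13 for Gbp2 and -0.44 for Sparc in HSK over NK. They gave -0.60 for Bnip3l, 0.12 for Cenpf, -0.59 for Gbp2 and -6.67 for Saa3 in NK over NW. Thinning gave 0.81 for Dcn in HSK over NK and 0.25 for Cxcl13 in NK over NW, and members of at least 4726 UMIs gave 0.13 for Dcn in HSK over NK. Bpifa1 in NK over NW stood at 0.66 without members with monocyte genes. Without the highest cell of each gene the values were -0.17 for Cd24a and -1.0 for Sparc in HSK over NK, and 0.073 for Bpifa1 and -1.05 for Saa3 in NK over NW. Leaving out cells called doublets by Scrublet removed 0 members.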

Other observations

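Genes of mitophagy, the removal of mitochondria in which FUNDC1 takes part, mostly stayed within the fold bounds in interstitial macrophages. There were 0 higher and 6 lower of 26 in HSW against NW, 1 higher and 9 lower of 25 in HSK against NK, where 28.1% of all genes were lower in wild type and 33.3% in knockout, 4 higher and 3 lower of 28 in NK against NW and 1 higher and 2 lower of 24 in HSK against HSW. With TMM factors the balance under HySu turned, to 4 higher and 1 lower in HSW against NW and 5 higher and 2 lower in HSK against NK. Bnip3l, another receptor of mitophagy, had 38 UMIs in HSK, 31 in HSW, 40 in NK and 22 in NW, with ratios of 1.20 [0.672, 2.17] for HSW over NW, 1.01 [0.631, 1.62] for HSK over NK, 1.91 [1.11, 3.38] for NK over NW and 1.61 [0.978, 2.68] for HSK over HSW. Genes of mitochondrial fusion and fission gave 0 higher and 3 lower of 15 in HSW against NW, 0 higher and 1 lower of 17 in HSK against NK, 1 higher and 0 lower of 18 in NK against NW and 2 higher and 0 lower of 14 in HSK against HSW, or with TMM factors 1 higher and 1 lower in HSW against NW, 0 higher and 0 lower in HSK against NK and 0 higher and 1 lower in NK against NW.

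Genes of the hypoxia response and glycolysis gave 2 higher and 3 lower of 20 in HSW against NW, 2 higher and 5 lower of 23 in HSK against NK, 4 higher and 2 lower of 23 in NK against NW and 3 higher and 1 lower of 22 in HSK against HSW. Under TMM scaling the balance in both HySu comparisons turned, to 5 higher and 2 lower in HSW against NW and 5 higher and 3 lower in HSK against NK. Gapdh, a glycolytic enzyme gene with many processed pseudogenes, had 973 CPM in HSK, 967 in HSW, 398 in NK and 581 in NW, higher in both HySu libraries than in both normoxia libraries. Plin2, which coats lipid droplets, had 263 CPM in HSK, 284 in HSW, 268 in NK and 147 in NW, with ratios of 1.94 [1.52, 2.48] for HSW over NW, 0.983 [0.786, 1.23] for HSK over NK and 1.82 [1.42, 2.36] for NK over NW.

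Genes of the lysosome gave 3 higher and 2 lower of 25 in HSW against NW, 3 higher and 10 lower of 26 in HSK against NK, 6 higher and 0 lower of 26 in NK against NW and 1 higher and 1 lower of 26 in HSK against HSW. TMM factors gave 7 higher and 0 lower in HSW against NW, 7 higher and 1 lower in HSK against NK and 2 higher and 1 lower in NK against NW, so the balance in knockout under HySu turned with the scaling. Ribosomal protein genes, which follow RNA quality and cell size as well as growth, gave 7 higher and 1 lower of 44 in HSW against NW, 12 higher and 2 lower of 44 in HSK against NK, 0 higher and 1 lower of 44 in NK against NW and 0 higher and 0 lower of 44 in HSK against HSW. With TMM factors 23 of them were higher in HSW against NW and 26 in HSK against NK.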
